A study of Mus musculus with 4 samples.

Results

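Marker genes of the macrophages, sinusoidal endothelial cells and stellate cells of mouse liver were followed in untreated and JIB-04 treated animals. The set held 32 named genes, 10 of Kupffer cells and other macrophages, 11 of sinusoidal endothelium and 11 of stellate cells and their matrix, and all 32 were found by symbol among the 56748 genes of the deposited table. Liver RNA came from 4 NSG mice, an immunodeficient strain without mature T, B and natural killer cells whose NOD background also leaves macrophages functionally impaired. All 4 mice share the NSG background, and the genotype label reads WT in every sample. The 2 untreated animals received no vehicle, and the 2 JIB-04 animals were gavaged orally with 5 doses of 55 mg/kg JIB-04, which inhibits histone demethylases of the Jumonji family, on a schedule of 2 per week. Each library came from a separate mouse, so spread inside a group mixes differences among animals with those of sampling and library preparation. Neither age nor sex is given in the labels.

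Kupffer cells are the resident macrophages of the liver sinusoid and clear particles, bacteria and aged red cells from portal blood. Sinusoidal endothelial cells form a fenestrated lining without a regular basement membrane and take up waste macromolecules through scavenger receptors. Hepatic stellate cells lie between endothelium and hepatocytes, store vitamin A as retinyl esters, and turn into collagen-producing myofibroblasts after injury. In bulk liver RNA, fewer cells of a type and less RNA per cell cannot be told apart, and the values below are levels over the whole tissue.

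The reads recovered from the FPKM values (fragments per kilobase of gene length, scaled to the size of the library) numbered 36469514 to 43283827 per library, and the 32 markers together took 0.164% to 0.214% of them. The labelled tissue was matched by hepatocyte genes, with Alb, the albumin gene, between 22910 and 46858 FPKM in the 4 libraries. Of 15 genes of T, B and natural killer cells, 8 were at 0 in every library, and the list summed to 1.09 to 1.68 FPKM. Markers of all 3 sinusoidal cell types were present, since 29 of the 32 averaged at least 1 FPKM, the level required for testing. Des, Col1a1 and Col1a2 averaged less and were not tested. No tested marker had a group mean under 1 FPKM, so none was kept through 1 group alone.

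No marker of the 3 cell types passed the test for a difference between JIB-04 and untreated liver. The test was limma on log2(FPKM + 1) across 10819 genes, with calls at a Benjamini-Hochberg adjusted p under 0.05. It called 0 of 29 tested markers, while 2.14% of all tested genes were called, 1.53% higher and 0.619% lower. At an unadjusted p under 0.05 there were 3 markers, Lrat, Lyz2 and Ecm1, all lower in JIB-04 liver, against 15.5% of all tested genes. Voom on the recovered reads called 2 markers, Lrat and Lyz2, both lower, where it called 4.76% of all tested genes. The 95% interval of the log2 change lay within a 2-fold difference in either direction for 28 of the 29 markers, the exception being Lyz2, and for 91.2% of all tested genes. The half-width of that interval had a median of 0.36 over the markers, an unadjusted error that is not the limit of the adjusted test, and log2 changes of -0.62 and -0.66 were not called. These intervals are on the log2(FPKM + 1) scale, which understates differences of genes with low levels, and are not adjusted for the number of genes.

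**Figure D1:**
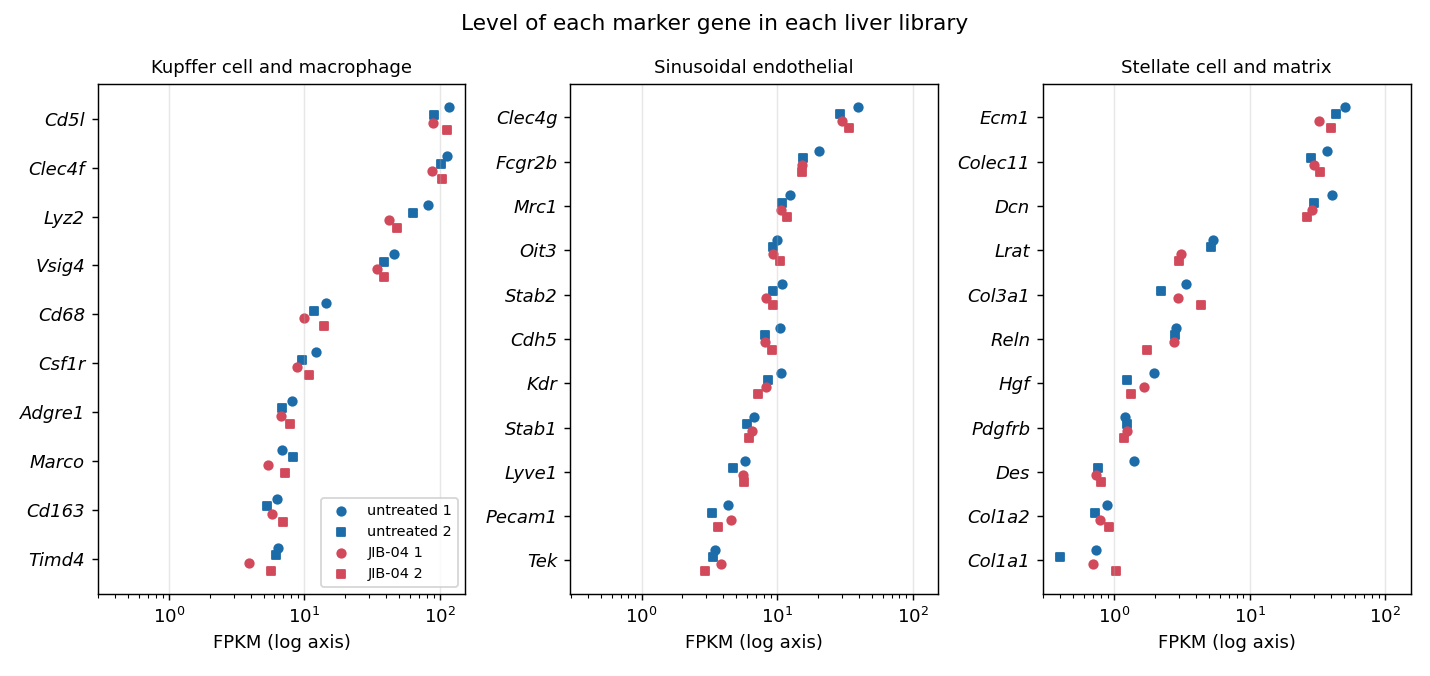
FPKM of the 32 markers on a log axis, 1 point per library, with genes ordered by their mean within each cell type. Cd5l and Clec4f are the most abundant macrophage markers, and Lrat and Lyz2 are among the genes whose untreated points all lie above the JIB-04 points.

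Among macrophage markers, the Kupffer cell genes Cd5l and Clec4f had the highest levels. Cd5l, a secreted scavenger receptor protein that keeps macrophages alive, was at 116 and 90.3 FPKM in untreated 1 and 2 and at 89.2 and 112 in JIB-04 1 and 2. Clec4f, a galactose-binding lectin found on rodent Kupffer cells, was at 113 and 102 in untreated and 87.1 and 104 in JIB-04 liver. The groups overlapped for both genes, with untreated 1 highest and JIB-04 1 at the bottom. Their log2 changes were -0.03 (95% interval -0.45 to 0.39) for Cd5l and -0.17 (-0.50 to 0.17) for Clec4f, neither past the test (limma adjusted p = 0.966 and 0.656). Levels in FPKM then descended through Lyz2, Vsig4, Cd68, Csf1r, Adgre1, Marco, Cd163 and Timd4, from group means of 72.1 and 45.0 for Lyz2 to 6.30 and 4.80 for Timd4.

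Receptors that identify resident Kupffer cells did not pass the test. Vsig4, the complement receptor that captures circulating bacteria, was at 45.8 and 38.8 FPKM in untreated and 34.4 and 38.5 in JIB-04 liver. Its groups did not overlap, yet the gap between untreated 2 and JIB-04 2 was far smaller than the gap within either group (log2 change -0.21, limma adjusted p = 0.556). Timd4, a phosphatidylserine receptor of long-lived resident macrophages, was at 6.39 and 6.21 in untreated and 3.93 and 5.66 in JIB-04 liver. The JIB-04 libraries were both below the untreated ones, and JIB-04 1 was the lower of them (log2 change -0.35, interval -0.74 to 0.04, adjusted p = 0.385). Marco, a scavenger receptor for bacteria, was at 6.81 and 8.24 in untreated and 5.34 and 7.13 in JIB-04 liver, with overlapping groups (log2 change -0.24, adjusted p = 0.563).

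General macrophage genes also stayed short of the threshold. Csf1r, the receptor on which macrophage survival depends, was at 12.1 and 9.52 FPKM in untreated and 8.75 and 10.8 in JIB-04 liver (log2 change -0.13, interval -0.51 to 0.25, limma adjusted p = 0.766). Adgre1, which encodes the F4/80 antigen, was at 8.14 and 6.79 in untreated and 6.75 and 7.84 in JIB-04 liver (log2 change -0.03, adjusted p = 0.959). The lysosomal glycoprotein gene Cd68 was at 14.4 and 11.9 in untreated and 9.85 and 14 in JIB-04 liver (log2 change -0.14, adjusted p = 0.798). For these 3 genes untreated 1 was the highest library and JIB-04 1 the lowest, and the groups overlapped. The haemoglobin scavenger receptor gene Cd163 was the 1 macrophage marker with a positive log2 change, 0.11, from 6.32 and 5.26 in untreated to 5.75 and 6.89 in JIB-04 liver (adjusted p = 0.799).

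Lyz2, the lysozyme gene of macrophages, monocytes and neutrophils, had the most negative log2 change of the set, although Lrat had the lower fold. It was at 81.6 and 62.7 FPKM in untreated and 42.2 and 47.8 in JIB-04 liver, from 3936, 3118, 2381 and 2310 reads in that order. Both JIB-04 libraries lay below both untreated libraries, with means of 72.1 ± 13.3 and 45.0 ± 3.96 (SD, n = 2). The log2 change was -0.66 (SE 0.16, interval -1.04 to -0.28), a 0.624-fold level, at an unadjusted p of 0.00484 and a limma adjusted p of 0.106. Voom on the recovered reads gave an adjusted p of 0.0183, and over all alternatives the adjusted p ran from 0.0183 to 0.409. Divided by another macrophage marker in the same library, Lyz2 had lower, non-overlapping ratios in JIB-04 liver for 7 of 9 partners, a description made after the values were seen. These ratios all share the Lyz2 values and so restate them. Against Adgre1, for example, the ratio was 10.03 and 9.23 in untreated and 6.25 and 6.10 in JIB-04 liver. The neighbouring copy Lyz1 was at 0.13 FPKM or less in every library.

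Lyz2 (ENSMUSG00000069516) lies on the minus strand of chromosome 10, 117113236 to 117118226 in GRCm39, and Lrat (ENSMUSG00000028003) on the minus strand of chromosome 3, 82799886 to 82811280. The 250 bases before the start of each gene are shown because these are the markers of lowest p, although no binding or chromatin was measured here. They are RefSeq sequence of build GRCm38.p6, at chr10:117282273-117282522 and chr3:82903975-82904224, written 5′ to 3′ on the gene's strand, with CAGGAA on either strand, a motif of ETS factors, in capitals.
Lyz2: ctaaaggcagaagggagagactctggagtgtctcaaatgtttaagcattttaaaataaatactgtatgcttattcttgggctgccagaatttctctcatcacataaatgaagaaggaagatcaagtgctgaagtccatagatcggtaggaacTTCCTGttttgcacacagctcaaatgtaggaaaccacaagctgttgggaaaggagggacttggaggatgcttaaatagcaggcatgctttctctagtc
Lrat: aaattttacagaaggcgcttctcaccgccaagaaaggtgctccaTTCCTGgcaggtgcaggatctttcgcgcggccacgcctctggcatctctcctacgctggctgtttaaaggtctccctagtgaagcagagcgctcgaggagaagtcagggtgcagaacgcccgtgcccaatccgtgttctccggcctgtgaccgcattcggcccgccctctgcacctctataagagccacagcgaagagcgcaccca
Each holds the motif 1 time, as TTCCTG, beginning 98 bases before the start for Lyz2 and 206 for Lrat. Promoter sequences were matched for 23 of the 32 markers. The motif was in 13 of these, namely 3 of 8 macrophage, 5 of 7 endothelial and 5 of 8 stellate genes, and in 25.7% of all 32851 promoter windows of that length. The related GAGGAA on either strand, part of the PU.1 motif of macrophages, was in 4 of 8 macrophage genes (Cd5l, Cd68, Marco and Vsig4), 2 of 7 endothelial and 1 of 8 stellate genes, against 23.3% of all windows. Both share AGGAA and differ in the first letter, so 1 site matches only 1 of them. TATAAA on either strand was in 3 of the 23 (Clec4g, Col3a1 and Ecm1), against 12.4% of all windows. A marker was counted if any of its windows held the motif, whereas the percentages are of single windows. The counts and percentages are therefore unlike measures, and no excess can be read from them. A match describes the letters and not a bound site.

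Genes of monocytes and neutrophils, which also carry Lyz2, were mixed in level. Of 18 genes of monocytes and neutrophils 4 were tested and 0 were called, against 2.14% of all tested genes. The granulocyte genes Ly6g, Mpo and Elane were at 0.511 FPKM or less, and the monocyte genes Ly6c2 and Ccr2 at 0.545 or less, in every library. The list summed to 40.9 and 17.5 in untreated and 55.7 and 82.4 in JIB-04 liver, with most of the difference in S100a8, a calcium-binding alarmin subunit. S100a8 was at 6.68 and 2.40 in untreated and 36.3 and 63.0 in JIB-04 liver (log2 change 3.26, limma adjusted p = 0.131). Its partner S100a9 was at 18.7 and 4.01 in untreated and 7.51 and 8.45 in JIB-04 liver, with overlapping groups (adjusted p = 0.965). Plac8 and Csf3r, the other tested genes of the list, had log2 changes of -0.26 and -0.20. The part of these cells in the Lyz2 values was not tested.

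The wider macrophage list held no called gene either. Of 28 tested genes beside the markers, 0 were called by limma, against 2.14% of all tested genes. A negative log2 change was found for 22, against 48.6%, and an unadjusted p under 0.05 for 5, against 15.5%. The median log2 change was -0.13, against 0.01 over all tested genes. The lowest p values belonged to Id3, Fcna and Slc40a1. Id3, a transcriptional regulator needed for Kupffer cell development that other liver cells also express, was at 43.1 and 56.0 FPKM in untreated and 33.1 and 22.05 in JIB-04 liver (adjusted p = 0.154). Fcna, a ficolin of the lectin complement pathway, was at 29.0 and 29.0 in untreated and 17.6 and 22.9 in JIB-04 liver (adjusted p = 0.159), and the iron exporter gene Slc40a1 at 44.4 and 34.1 against 25.6 and 29.8 (adjusted p = 0.219). The other 2 genes with an unadjusted p under 0.05, named after their values were seen, had log2 changes of opposite sign. Cd14, the lipopolysaccharide co-receptor gene, was at 2.35 and 2.58 against 3.11 and 4.81 (log2 change 0.50, adjusted p = 0.264), and Aif1, a calcium-binding macrophage protein gene, at 3.88 and 4.27 against 2.76 and 3.15 (log2 change -0.36, adjusted p = 0.239). In all 5 the groups did not overlap, and these 5 were picked by low p. Over the 28 genes the groups did not overlap for 13, against 46.4% of all tested genes.

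Endothelial markers had the median log2 change nearest to 0 of the 3 cell types, at -0.05. All 11 were tested, and the 7 negative and 4 positive log2 changes ranged from -0.27 for Kdr to 0.10 for Lyve1. Lectins and Fc receptors of the sinusoid surface came first in level. Clec4g, a sinusoidal lectin, was at 39.8 and 29.1 FPKM in untreated and 30.1 and 33.7 in JIB-04 liver (log2 change -0.09, interval -0.50 to 0.32, limma adjusted p = 0.868). Fcgr2b, the inhibitory Fc receptor that clears small immune complexes, was at 20.5 and 15.6 in untreated and 15.3 and 15.3 in JIB-04 liver. Untreated 1 stood above 3 near-equal libraries (log2 change -0.21, adjusted p = 0.594).

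The endocytic receptors of the sinusoid did not pass the test. Stab1 and Stab2 encode stabilins, which remove hyaluronan and other waste from blood. Stab1 was at 6.72 and 5.96 FPKM in untreated and 6.48 and 6.24 in JIB-04 liver, a log2 change of 0.01 (interval -0.28 to 0.29). The sign of this value was negative when the 50 most abundant genes were left out of the scaling (-0.04), under quantile normalization (-0.02) and with voom (-0.01). Stab2 was at 10.8 and 9.37 in untreated and 8.32 and 9.27 in JIB-04 liver (log2 change -0.18, limma adjusted p = 0.595). The mannose receptor gene Mrc1, also expressed by macrophages, was at 12.5 and 10.9 against 10.7 and 11.9 (log2 change -0.05). The hyaluronan receptor gene Lyve1 was at 5.75 and 4.73 against 5.65 and 5.71 (log2 change 0.10). Oit3, a gene used to mark sinusoidal endothelium, was at 9.93 and 9.26 against 9.30 and 10.5 (log2 change 0.04, and -0.01 when scaled without the most abundant genes).

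Receptors and junction proteins of endothelium in general did not pass the test either. Kdr, the main receptor of vascular endothelial growth factor, was at 10.6 and 8.58 FPKM in untreated and 8.35 and 7.21 in JIB-04 liver. Both JIB-04 libraries lay below the untreated ones, by a log2 change of -0.27 (interval -0.61 to 0.08, limma adjusted p = 0.460). The junctional cadherin gene Cdh5 was at 10.5 and 8.08 in untreated and 8.09 and 9.18 in JIB-04 liver (log2 change -0.09). The adhesion molecule gene Pecam1 was at 4.32 and 3.32 against 4.60 and 3.69 (log2 change 0.10), and the angiopoietin receptor gene Tek at 3.47 and 3.39 against 3.83 and 2.94 (log2 change -0.02). The groups overlapped for these last 3 genes.

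Of 29 further endothelial genes that were tested, 0 were called by limma, against 2.14% of all tested genes. A negative log2 change was found for 24, against 48.6%, with a median of -0.14. An unadjusted p under 0.05 was found for 3, against 15.5%. These 3 were Bmp6, Rspo3 and Mmrn2. Bmp6, an endothelial ligand that drives hepcidin expression in hepatocytes, was at 1.35 and 1.53 FPKM in untreated and 0.742 and 0.929 in JIB-04 liver (adjusted p = 0.233). The JIB-04 mean of Bmp6, 0.835 FPKM, was under the level required for testing. It was therefore kept only through the untreated group (mean 1.44), and its low p is no independent support for a difference. Rspo3, a Wnt pathway enhancer released by central vein endothelium, was at 2.22 and 1.40 against 1.13 and 1.01 (adjusted p = 0.317). Mmrn2, an endothelial matrix protein gene, was at 7.52 and 5.52 against 4.21 and 5.10 (adjusted p = 0.315). In each, both JIB-04 libraries were below both untreated ones, which was true of 21.8% of all tested genes, and these 3 were picked by low p. Over the 29 genes the groups did not overlap for 14, against 46.4% of all tested genes.

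Stellate markers ranged more widely than endothelial markers, with log2 changes from -0.62 for Lrat to 0.30 for Col3a1 among the 8 tested. Lrat encodes lecithin retinol acyltransferase, the enzyme that esterifies retinol for storage in stellate cell droplets. It was at 5.35 and 5.15 FPKM in untreated and 3.10 and 3.03 in JIB-04 liver, from 1049, 1042, 712 and 596 reads in that order. The libraries of a group lay close together and the groups were well apart, with means of 5.25 ± 0.135 and 3.07 ± 0.0499 (SD, n = 2), a 0.584-fold level. The log2 change was -0.62 (SE 0.118, interval -0.90 to -0.34), at an unadjusted p of 0.00130 and a limma adjusted p of 0.0549, just outside the threshold. Adjusted p was 0.00890 with voom, where 1.9% of all tested genes were called lower. It was 0.0498 when values were scaled without the 50 most abundant and the mitochondrial genes, where 0.92% were called lower, and it ranged up to 0.269 over all alternatives. Without any single library the log2 change stayed between -0.64 and -0.60, with adjusted p between 0.171 and 0.232.

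Lrat was lower relative to most of its fellow stellate markers, in ratios that all share the Lrat values and so restate them. These ratios were not set against ratios of other genes. The ratio of Lrat to each of the other 10 in the same library, a description made after the values were seen, was lower and non-overlapping in JIB-04 liver for 9, the exception being Des. Against Pdgfrb, the receptor for platelet-derived growth factor, the ratio was 4.44 and 4.13 in untreated and 2.51 and 2.57 in JIB-04 liver. Pdgfrb itself had nearly the same level in all libraries, 1.2 and 1.25 FPKM in untreated and 1.23 and 1.18 in JIB-04 liver (log2 change -0.01, interval -0.33 to 0.31). Against Colec11 the ratio was 0.143 and 0.183 in untreated and 0.104 and 0.0916 in JIB-04 liver. The only gene overlapping Lrat in the deposited coordinates, the noncoding Rbm46os, was at 0 in every library.

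Other genes of vitamin A transport and of quiescent stellate cells did not pass the test. Rbp4, the hepatocyte gene of the plasma retinol carrier, was at 2338 and 2110 in untreated and 1648 and 1642 in JIB-04 liver (log2 change -0.43, limma adjusted p = 0.226). Reln, the reelin gene of quiescent stellate cells, was at 2.84, 2.79, 2.78 and 1.76 in untreated 1 and 2 and JIB-04 1 and 2, with JIB-04 2 apart from the other 3, and its log2 change of -0.24 was -0.01 without that library. Colec11, a collectin of the lectin complement pathway, was at 37.3 and 28.2 against 29.8 and 33.1 (log2 change -0.05). Hgf, the growth factor for hepatocytes, was at 1.96 and 1.25 against 1.66 and 1.33 (log2 change -0.05), and its receptor gene Met, chosen after its values were seen, at 14.8 and 12.3 against 12.7 and 10.8 (adjusted p = 0.604).

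Matrix genes had log2 changes of both signs and none passed the test. Dcn, the proteoglycan decorin, was at 40.7 and 30.1 FPKM in untreated and 29.0 and 26.3 in JIB-04 liver (log2 change -0.33, limma adjusted p = 0.422). Ecm1, a secreted matrix protein that hepatocytes also make, was at 50.4 and 43.1 against 32.2 and 39.9 (log2 change -0.37, interval -0.73 to -0.00500, adjusted p = 0.314). In both, the untreated libraries were above the JIB-04 libraries. The fibrillar collagens, the product of activated stellate cells, were low. Col3a1 was at 3.38 and 2.23 in untreated and 2.95 and 4.40 in JIB-04 liver, the 1 tested stellate marker with a positive log2 change (0.30, interval -0.23 to 0.82, adjusted p = 0.597).

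The untested stellate genes stayed under 1.4 FPKM. Col1a1 was at 0.740 and 0.395 FPKM in untreated and 0.700 and 1.03 in JIB-04 liver, from 178, 98, 197 and 249 reads in that order. Col1a2 was at 0.889 and 0.724 against 0.788 and 0.923. Des, the desmin gene, was at 1.39 and 0.762 against 0.739 and 0.805. Groups overlapped for all 3, and JIB-04 2 was the highest library for each of the 3 collagens. Acta2, the actin of myofibroblasts, chosen after its values were seen, was at 1.69 and 1.04 against 1.87 and 1.48 (limma adjusted p = 0.697).

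Of 23 further stellate and fibroblast genes that were tested, 0 were called by limma, against 2.14% of all tested genes. An unadjusted p under 0.05 was found for 1, against 15.5%. There were 10 positive and 13 negative log2 changes, with a median of -0.12, while 48.6% of all tested genes were negative. The 3 of lowest p were Col4a1, Vipr1 and Sparc. Col4a1, a basement membrane collagen also made by endothelium, was at 4.37 and 3.75 FPKM in untreated and 5.06 and 5.47 in JIB-04 liver (adjusted p = 0.313). Vipr1, a receptor for vasoactive intestinal peptide, was at 6.61 and 6.16 against 4.74 and 5.34 (adjusted p = 0.326). Sparc, a matrix-binding glycoprotein, was at 35.8 and 30.6 against 37.9 and 45.5 (adjusted p = 0.374).

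**Figure D2:**
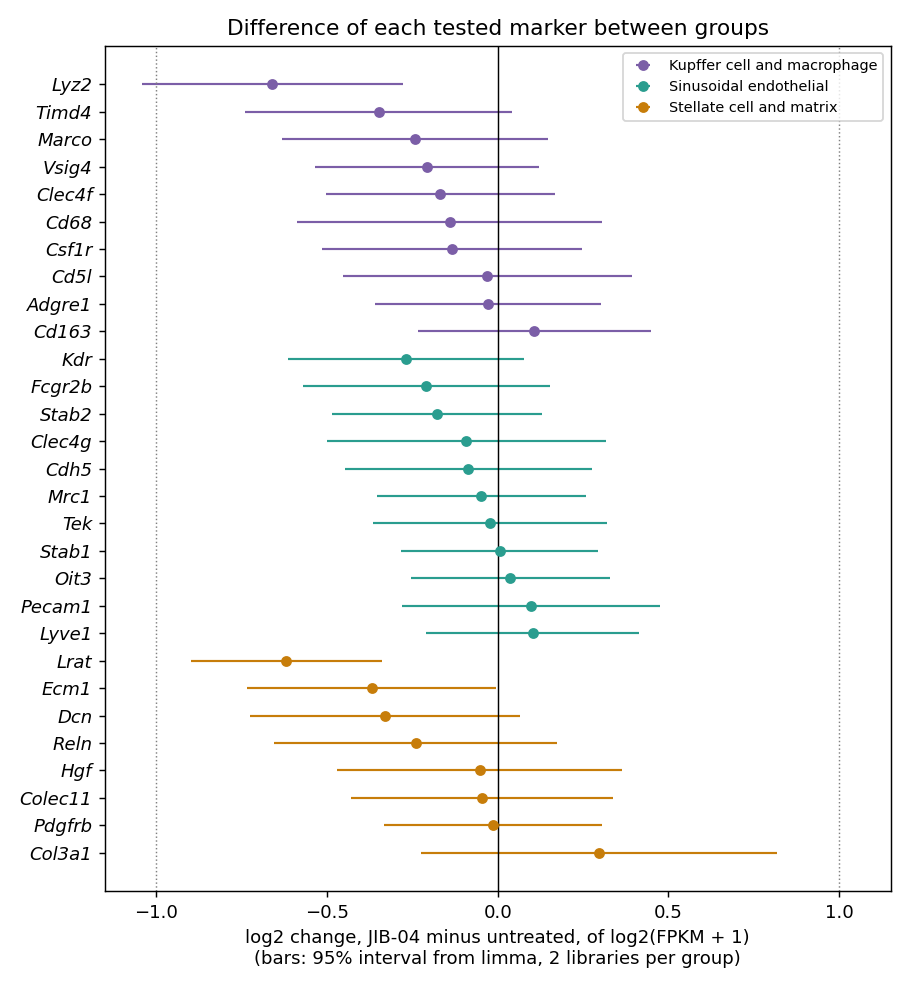
Log2 change of the 29 tested markers, JIB-04 minus untreated, with 95% intervals from limma and dotted lines at a 2-fold difference. Lrat, Lyz2 and Ecm1 have intervals that exclude 0, and the lower bound for Lyz2 reaches -1.04.

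Small negative differences were common in the set. The log2 change was below 0 for 23 of the 29 tested markers (9 of 10 macrophage, 7 of 11 endothelial and 7 of 8 stellate genes), while 48.6% of all tested genes were below 0. The groups did not overlap for 10 of the 29, all lower in JIB-04 liver (3 macrophage, 3 endothelial and 4 stellate genes). Over all tested genes 46.4% did not overlap, 21.8% lower and 24.6% higher. Markers of 1 cell type share cells and libraries, so these counts are not independent observations.

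Over all 29 tested markers, the number of negative signs depended most on 1 untreated library. Untreated 1 was the highest of the 4 libraries for 22 of the 29 tested markers and the lowest for 0, whereas it was the highest for 24.1% of all tested genes. It exceeded untreated 2 for 27 of 29 markers, by a median of 0.23 on the log2(FPKM + 1) scale, against 50.1% of all tested genes. All 11 endothelial markers shared that order. Without untreated 1, 15 of the 29 log2 changes were below 0, and the median log2 change went from -0.15 to -0.05 for macrophage, from -0.05 to 0.08 for endothelial and from -0.15 to -0.07 for stellate markers.

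Macrophage markers also differed between the JIB-04 libraries. All 10 were lower in JIB-04 1 than in JIB-04 2, by a median of 0.26 on the log2(FPKM + 1) scale, and JIB-04 1 was the lowest library for 9 of them. The same held for 7 of 11 endothelial and 3 of 8 stellate markers, and for 49.3% of all tested genes. Without JIB-04 1 the median log2 change was -0.02 for macrophage, -0.02 for endothelial and -0.18 for stellate markers. In that setting 19 of all 29 log2 changes were below 0. For the 10 macrophage markers, 5 were below 0 without JIB-04 1 and 6 without untreated 1, against 9 with all libraries. Without JIB-04 2 it was -0.29, -0.12 and -0.07, and without untreated 2 it was -0.26, -0.14 and -0.25, in the same order.

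**Figure D3:**
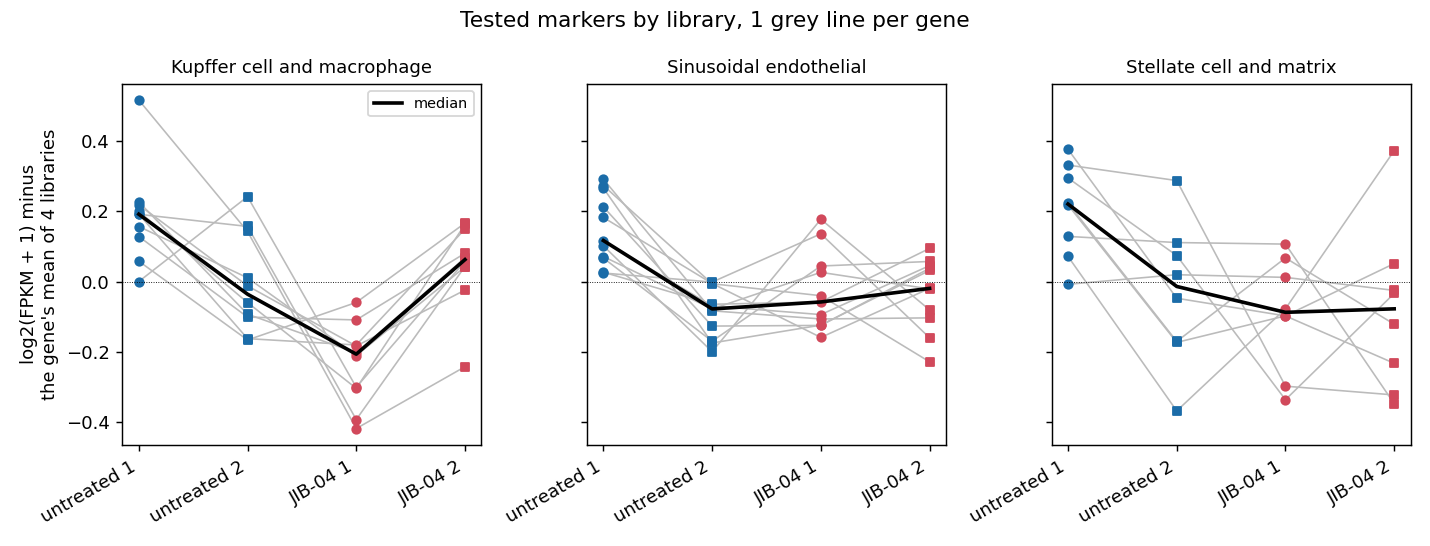
Log2(FPKM + 1) of each tested marker minus its mean over the 4 libraries, with 1 grey line per gene joining the libraries and the black line at the median. Untreated 1 lies highest for 22 of 29 markers, and JIB-04 1 lies lowest for 9 of 10 macrophage markers.

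Untreated 1 had the highest summed FPKM for each cell type, while the lowest sum was in JIB-04 1 for macrophage and stellate markers and in untreated 2 for endothelial markers. The 10 macrophage markers summed to 410 and 342 FPKM in untreated and 293 and 355 in JIB-04 liver, a ratio of group means of 0.863. The 11 endothelial markers summed to 135 and 108 in untreated and 111 and 116 in JIB-04 liver (ratio 0.931, and 1.05 without untreated 1). The 11 stellate markers summed to 146 and 116 against 105 and 114 (ratio 0.835), with most of the difference in Ecm1 and Dcn. The groups overlapped for the macrophage and endothelial sums and not for the stellate sum. Set against the hepatocyte list, all 32 markers together came to 8.85 and 7.47 per 1000 FPKM of hepatocyte genes in untreated and 8.89 and 11.4 in JIB-04 liver, the opposite direction, with groups that did not overlap and hepatocyte sums that were lower in both JIB-04 libraries. With 2 libraries in each group the smallest p of an exact permutation test is 0.333, and these sums were therefore left untested.

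Transcripts of other cells moved between the same libraries. Of 6 tested red cell genes 0 were called by limma, against 2.14% of all tested genes. All 6 had negative log2 changes, against 48.6% of all tested genes, with a median of -1.11. The whole red cell list, 8 genes, summed to 2955 and 1847 FPKM in untreated and 655 and 1784 in JIB-04 liver, so untreated 1 was highest and JIB-04 1 lowest, as for the macrophage sum. Among them were the globin genes Hba-a2 (limma adjusted p = 0.185) and Hbb-bs (0.530). Hepatocyte genes, 14 of them, summed to 78101 and 75697 in untreated and 57275 and 51177 in JIB-04 liver, most of it Alb (limma adjusted p = 0.144). Of these 14, 0 were called, against 2.14% of all tested genes. Negative log2 changes were found for 12, against 48.6%, with a median of -0.13, against 0.01 over all tested genes. The lowest p values after that of Ahsg (limma adjusted p = 0.139) belonged to Alb and Fgb (0.562). Bile duct genes summed to 46.9 and 40.7 against 41.9 and 49.3, and the osteopontin gene Spp1 of that list did not pass the test (limma adjusted p = 0.819). Dendritic cell genes summed to 3.38 to 4.33, and those of mesothelium and smooth muscle to 2.49 to 3.79. The part of red cell and hepatocyte RNA in the marker levels was not tested.

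**Figure D4:**
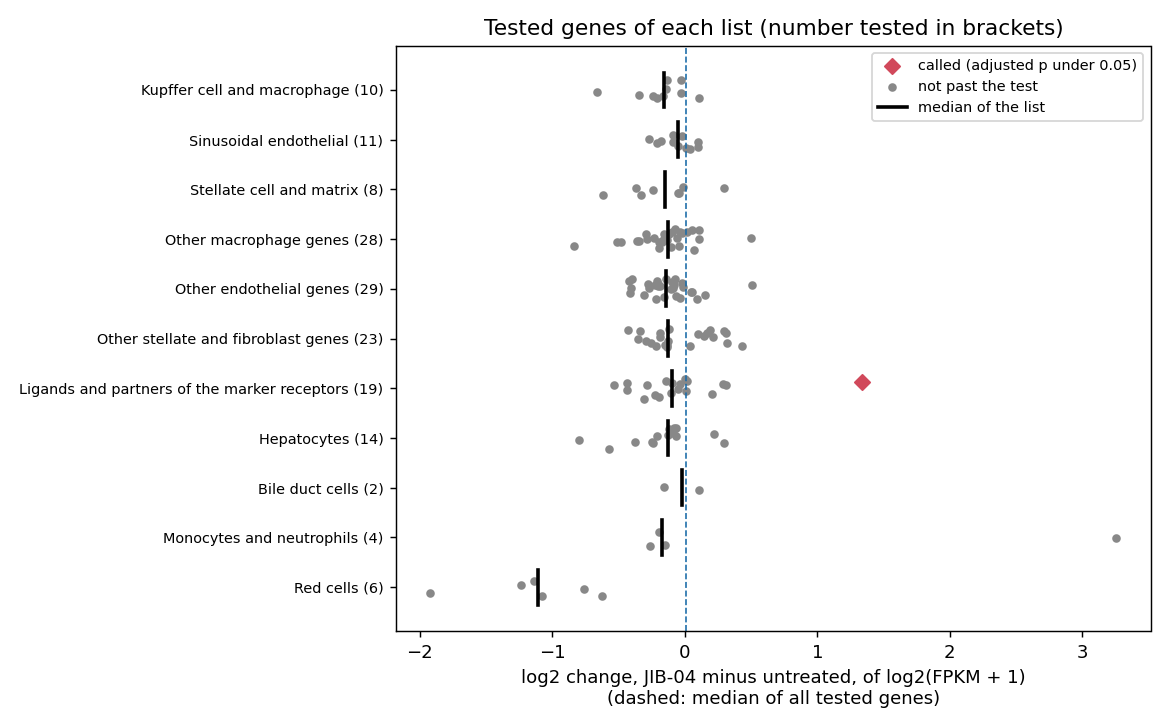
Log2 change of each tested gene by list, with the black bar at the list's median, the dashed line at the median of all 10819 tested genes and red diamonds for called genes. Csf2rb is the only called gene in these lists, and the red cell genes lie lowest, with a median of -1.11.

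The list of ligands and partners of the marker receptors gave the 1 called gene among the lists. Of 19 tested genes of that list 1 was higher, 0 were lower and 18 did not pass, with a median log2 change of -0.10, while 1.53% of all tested genes were called higher. An unadjusted p under 0.05 was found for 5 of the 19, against 15.5% of all tested genes. The groups did not overlap for 12, against 46.4%. Csf2rb (ENSMUSG00000071713), the common beta chain of the receptors for GM-CSF, interleukin 3 and interleukin 5, rose from 1.62 and 1.79 FPKM in untreated to 5.68 and 5.94 in JIB-04 liver (log2 change 1.33, SE 0.123, limma adjusted p = 0.00528). Its near copy Csf2rb2, chosen after its values were seen, was at 1.65 and 1.54 against 1.51 and 1.54 (adjusted p = 0.931). The Csf2rb call ended without JIB-04 1 (adjusted p = 0.0725), without JIB-04 2 (0.0933) and without the filter on low values (0.0923), and was past the threshold with voom (2.98e-05). Which liver cell carried this transcript was not measured.

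The ligands of the marker receptors themselves did not pass the test. Csf1, the ligand of the Csf1r receptor, chosen like the next genes after values were seen, was at 5.54 and 4.47 FPKM in untreated and 5.23 and 4.36 in JIB-04 liver (limma adjusted p = 0.924). Vegfa, the ligand of the Kdr receptor, was at 36.6 and 47.1 against 33.9 and 32.9 (adjusted p = 0.406). Pdgfb, the ligand of the Pdgfrb receptor, was at 0.295 and 0.350 against 0.443 and 0.465, under the level for testing. Hgfac, the protease that activates the Hgf product and the next gene of this list by p, was at 61.2 and 63.7 against 43.5 and 41.9 (log2 change -0.54, adjusted p = 0.0751).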

How the data were processed

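Liver RNA was isolated in Trizol and sequencing libraries were made commercially, per the labels' protocols. FPKM values of the 4 libraries were deposited by the authors in 1 table, with gene lengths and coordinates. Per the submitters' processing notes, the builds were GRCm39 and mm39. The aligner, counter and annotation release, and whether strand was used, were not given in the sources used here, so reads of a marker and of a gene on its opposite strand cannot be told apart. Of the 32 markers 15 overlap another gene in the deposited coordinates, and for 2, Csf1r and Stab1, that gene (Hmgxb3, Nt5dc2) averaged at least 1 FPKM. Multiplying FPKM by gene length yielded whole reads for 100% of values (tolerance 0.01), with 1 read per kb equal to 0.0233 to 0.0273 FPKM.

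Genes averaging at least 1 FPKM were tested two-sided on log2(FPKM + 1) with limma 3.58.1 in R 4.3.3 (robust, trended variance moderation from 2 residual degrees of freedom), with p adjusted over all tested genes. The markers and lists were chosen with earlier results of these data known. The text names all 32 markers and, from each other list, called genes or the 3 tested genes of lowest p, except a few genes that are not reported here. Other genes, among them Rbp4, Hgfac, Csf2rb2, Csf1, Vegfa, Pdgfb, Met, Acta2, Cd14, Aif1, S100a9 and the untested genes of monocytes and neutrophils, were named after their values were seen. Of the listed symbols, Tf and Ahsp were not matched. The same replicate numbers in both groups name different mice. Pearson's r of same-numbered deviations across tested genes was -0.05, so the samples were not paired. There were 14 alternatives.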

Additional observations from a re-analysis of the deposited data

How the results depend on the processing

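The depth, at 36469514 to 43283827 reads per library, gave every marker at least 340 reads in each library except Des, Col1a1 and Pdgfrb, with 98 to 290. No endothelial marker was called under any alternative, and no marker was called higher. Voom called 1 macrophage marker lower (Lyz2) and 1 stellate marker lower (Lrat), and scaling without the 50 most abundant and mitochondrial genes called 1 stellate marker lower (Lrat). The replicate number as a block called 0 markers and 121 genes lower over the whole table, against 67, and 236 higher, against 165. Over the whole table voom called 309 genes higher and 206 lower, and no filter on low values 20 and 0. The median log2 change of stellate markers was -0.33 with a mean FPKM of at least 5, where only 3 of them remained tested. For Stab1, a log2 change of 0.01 became -0.043 when scaled without the most abundant genes, -0.019 with quantile normalization and -0.0096 with voom, and that of Oit3, 0.04, became -0.014 under the first of these. The cause was not tested.

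Leaving out each library in turn, the remaining library of that group being given the spread of the opposite group, called 0 markers, and between 22 and 107 genes higher and 1 and 54 lower over the whole table. The ratio of summed endothelial FPKM ran from 0.839 to 1.05, that of the macrophage sum from 0.781 to 0.949 and that of the stellate sum from 0.749 to 0.943. Log2 changes took the opposite sign without 1 of the libraries for 16 markers. They ran from -0.14 to 0.087 for Adgre1, from -0.21 to 0.15 for Cd5l, from -0.29 to 0.025 for Csf1r, from -0.31 to 0.13 for Clec4g, from -0.26 to 0.083 for Cdh5, from -0.14 to 0.045 for Mrc1, from -0.24 to 0.15 for Colec11 and from -0.25 to 0.14 for Hgf. They also ran from -0.0053 to 0.22 for Cd163, from -0.068 to 0.081 for Stab1, from -0.016 to 0.22 for Lyve1, from -0.039 to 0.11 for Oit3, from -0.053 to 0.25 for Pecam1, from -0.031 to 0.0060 for Pdgfrb, from -0.37 to 0.093 for Cd68 and from -0.17 to 0.12 for Tek.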
